A study of Mus musculus with 8 samples.

Results

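Expression of 10 genes of cholesterol synthesis and its control was followed in mouse nerve sheath tumours treated with rapamycin, a MEK inhibitor or both. The genes are Hmgcs1, Idi1, Fdft1, Sqle, Lss, Cyp51 and Nsdhl, which encode enzymes of the pathway, Srebf2 and Insig1, which control it, and Stard4, which carries sterols. They form a fixed list of names that was drawn up with earlier results of these data known, so shares over all genes given beside them are descriptions. Each was represented by the probe set that the array annotation gives to that symbol alone, and by the one with the highest mean where there were several. All 10 were found, out of 19938 genes with such a probe set.

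The tissue was the primary malignant peripheral nerve sheath tumour (MPNST) that arises in NPcis mice, in which mutations of Nf1 and Trp53 lie on the same chromosome, so all groups share this genetic model. There were 4 groups with 2 arrays in each, all taken at 14 hours. Control mice were given vehicle. Single-drug mice were given 5 mg/kg rapamycin into the peritoneum, or PD-0325901 by gavage, each dose being 1.5 mg/kg, and the combination mice were given both. Rapamycin inhibits the kinase complex mTORC1, and PD-0325901 inhibits MEK, the kinase that activates ERK. The labels give neither the age of the mice nor whether the arrays of a group came from separate animals, so the p-values cover only the spread between these arrays. RNA came from whole tumours, which also hold host cells.

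Cells make cholesterol from acetyl-CoA through mevalonate, isoprenoid diphosphates, squalene and lanosterol. The transcription factor SREBP-2, the product of Srebf2, switches on most genes of this route when sterols in the endoplasmic reticulum are low, while INSIG1 holds it back together with SCAP when sterols are high, and is itself an SREBP target. When sterols or oxysterols are plentiful, the nuclear receptor LXR instead switches on genes that export cholesterol, such as Abca1 and Abcg1. Both mTORC1 and ERK signalling are known to act on SREBP factors.

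The arrays correlated at 0.961 to 0.986 within groups and 0.963 to 0.985 between groups, and their medians lay between 7.79 and 7.90 on the log2 scale. A list of 19 ERK output genes had 18 lower with PD-0325901 and a median difference of -0.36. For 5 of the 19, all arrays with the drug lay below all without it, against 2.39% of all genes. The pathway inhibitor Spred1, with the smallest p of this list, was 1 of these. It lay at 9.96 to 10.15 on the 4 arrays with the drug and 10.54 to 10.69 on the others. Of 8 Schwann lineage markers, 6 were higher with PD-0325901 with a median of 0.02. Sox10 (7.85 to 8.17) and S100b (7.12 to 7.32) had narrow ranges over the 8 arrays, while Gap43 (7.66 to 9.68) and Cdh19 (5.40 to 7.34) had wide ones and main effects of 1.14 (SE 0.44) and 1.01 (SE 0.41). The table holds no background call, so the presence of these markers in the tumours could not be read from it. PD-0325901 array 2 stood apart in erythroid markers, of which 4 of 7 listed were measured. Their list score (the mean of the genes' centred log2 values) was 1.36 there against -0.39 to -0.04 on the other 7 arrays. Alas2 (11.5), Slc4a1 (10.28) and, by less, Epb42 (7.21) had their highest values there. Klf1 did not follow, at 7.05 against 7.27 on PD-0325901 array 1. Rapamycin array 1 stood apart in adipocyte markers (2.32 against -0.55 to 0.12) and rapamycin array 2 in skeletal muscle markers (1.63 against -0.82 to 0.50).

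All 10 genes had lower means on the 4 arrays with PD-0325901 than on the 4 without it, and none passed the test. As a main effect, the mean of the drug's effect without and with rapamycin, the differences ran from -1.03 for Cyp51 to -0.13 for Lss with a median of -0.60, while the median over all genes was -0.01 and 54.0% of all genes had a negative difference. In the limma fit of 4 group means, 0 of the 10 genes had an adjusted p under 0.05, and the same held for all genes (0%). At an unadjusted p under 0.05, 9.60% of all genes differed in either direction. Among the 10 genes, 5 were lower at that level (Cyp51, Insig1, Sqle, Idi1 and Srebf2), against 4.14% of all genes. In a fit of the arrays with against those without the drug, 0.110% of all genes passed the adjusted threshold and again 0 of the 10. For Cyp51, Insig1, Srebf2 and Stard4, all 4 arrays with PD-0325901 lay below all 4 without it, which held for 2.39% of all genes. In bulk tumours, fewer cells of a type and less RNA per cell cannot be told apart.

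The size of these differences depended on single arrays. PD-0325901 array 2 was the lowest of the 8 arrays for 8 of the 10 genes, against 9.01% of all genes. Without it the median was -0.35, and 3 of the 10 genes were lower at an unadjusted p under 0.05, against 2.31% of all genes. Leaving out a vehicle array gave 2 against 4.05% (array 1) or 3 against 4.78% (array 2). Leaving out the second combination array gave 2 against 2.67%, and leaving out the first PD-0325901 array gave 7 against 2.84%. The part of the erythroid signal of PD-0325901 array 2 in its low values was not tested. Without this array the main effects were -0.81 for Cyp51, -0.65 for Insig1, -0.59 for Sqle, -0.41 for Srebf2, -0.19 for Stard4 and 0.02 for Lss.

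**Figure D1:**
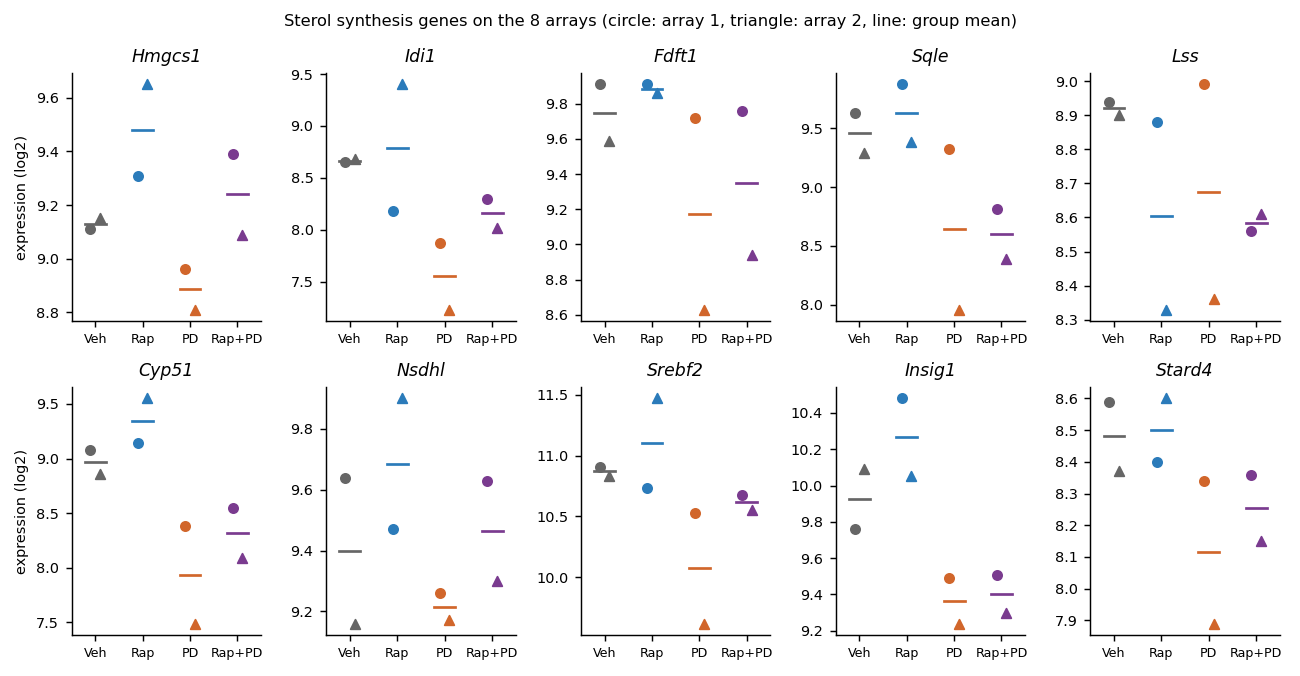
Expression (log2, deposited values) of the 10 sterol genes on the 8 arrays, with each panel on its own scale. Circles are array 1 and triangles array 2 of vehicle (Veh), rapamycin (Rap), PD-0325901 (PD) and combination (Rap+PD), lines are group means, and PD-0325901 array 2 is the lowest point in 8 of the 10 panels.

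At the head of the pathway, Hmgcs1, the enzyme that makes HMG-CoA, had a small difference, with more spread in the rapamycin and combination groups. It lay at 9.11 and 9.15 with vehicle, 9.31 and 9.65 with rapamycin, 8.96 and 8.81 with PD-0325901 and 9.39 and 9.09 with the combination. Both PD-0325901 arrays were below both vehicle arrays, but the combination arrays fell on either side of the lower rapamycin array. The difference was -0.24 (SE 0.16) both for PD-0325901 against vehicle and for the combination against rapamycin.

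Idi1, the isomerase that makes the isoprenoid building block dimethylallyl diphosphate, varied much more. Its values were 8.65 and 8.68 with vehicle, 8.18 and 9.40 with rapamycin, 7.87 and 7.23 with PD-0325901 and 8.30 and 8.02 with the combination. The PD-0325901 arrays were the lowest, and the rapamycin arrays lay 1.21 apart, with 1 of them below the upper combination array. The difference was -1.11 (SE 0.41, adjusted p = 0.815) for PD-0325901 against vehicle and -0.63 (SE 0.41, adjusted p = 0.896) for the combination against rapamycin. The latter was -0.03 without rapamycin array 2 and -1.24 without rapamycin array 1. Its other probe set gave a main effect of -0.86, next to -0.87 for the one used. Whether 1 of the probe sets of Idi1, or of Fdft1, reads a copy of the gene elsewhere in the genome was not analysed here.

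The squalene steps showed a wide gap between the arrays given PD-0325901. Fdft1, squalene synthase, lay at 9.91 and 9.59 with vehicle, 9.91 and 9.86 with rapamycin, 9.72 and 8.63 with PD-0325901 and 9.76 and 8.94 with the combination. With either treatment that holds PD-0325901, array 1 was near the other groups and array 2 was far below them. Its main effect was -0.56 (SE 0.29, adjusted p = 0.644), and -0.28 without PD-0325901 array 2. Its other probe set gave -0.44.

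Sqle, squalene epoxidase and a rate-limiting step of the sterol branch, had 9.63 and 9.29 with vehicle, 9.87 and 9.38 with rapamycin, 9.32 and 7.96 with PD-0325901 and 8.81 and 8.39 with the combination. PD-0325901 array 1 was level with the lower vehicle array, while both combination arrays were below every array without the drug. The main effect was -0.92 (SE 0.32, adjusted p = 0.443). Against vehicle, the difference for PD-0325901 of -0.82 (SE 0.45) became -0.14 without array 2.

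Lss, lanosterol synthase, did not share the pattern. Its values were 8.94 and 8.90 with vehicle, 8.88 and 8.33 with rapamycin, 8.99 and 8.36 with PD-0325901 and 8.56 and 8.61 with the combination. The highest and nearly the lowest of the 8 values both came from PD-0325901 arrays, so the arrays with and without this drug overlapped, while the rapamycin and the combination arrays all lay below both vehicle arrays. The main effect was -0.13 (SE 0.18, adjusted p = 0.898).

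Cyp51, lanosterol demethylase, had the largest PD-0325901 main effect of the 10 genes, although Idi1 (-1.11) was further from 0 against vehicle and Sqle (-1.03) for the combination against rapamycin. Without rapamycin array 1 the main effect of Idi1 (-1.18) passed that of Cyp51 (-1.13). Sqle passed it without rapamycin array 2 (-1.05 against -0.92) and, barely, without PD-0325901 array 1 (-1.26 against -1.25). Cyp51 lay at 9.08 and 8.86 with vehicle and at 9.14 and 9.55 with rapamycin. With PD-0325901 it was at 8.38 and 7.49, and with the combination at 8.55 and 8.09. All arrays with PD-0325901, at 7.49 to 8.55, were below all without it, at 8.86 to 9.55. The difference was almost equal without and with rapamycin, at -1.03 (SE 0.33, adjusted p = 0.723) against vehicle and -1.02 (SE 0.33, adjusted p = 0.641) for the combination against rapamycin. Without PD-0325901 array 2 the former was -0.59. As a main effect it was -1.03 (SE 0.23, adjusted p = 0.265), and 0.356% of all genes had a lower value.

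Nsdhl, which removes methyl groups from the sterol ring together with other enzymes, had 9.64 and 9.16 with vehicle, 9.47 and 9.90 with rapamycin, 9.26 and 9.17 with PD-0325901 and 9.63 and 9.30 with the combination. The lowest array was vehicle array 2, and the arrays with and without PD-0325901 overlapped, while both combination arrays lay above both PD-0325901 arrays. The main effect was -0.20 (SE 0.16, adjusted p = 0.790).

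Srebf2, the first of the 2 controlling genes, had a pattern close to that of Idi1. Its values were 10.91 and 10.83 with vehicle, 10.73 and 11.47 with rapamycin, 10.53 and 9.62 with PD-0325901 and 10.68 and 10.55 with the combination. The arrays with PD-0325901 ended at 10.68 and those without it began at 10.73, so the groups were separate by a narrow margin. The main effect was -0.64 (SE 0.25, adjusted p = 0.491), and the difference against vehicle of -0.80 (SE 0.35) became -0.34 without PD-0325901 array 2.

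Insig1 was the gene with the tightest grouping among those with a large difference. It lay at 9.76 and 10.09 with vehicle, 10.48 and 10.05 with rapamycin, 9.49 and 9.24 with PD-0325901 and 9.51 and 9.30 with the combination. The 4 arrays with PD-0325901 spanned 9.24 to 9.51, close to each other with or without rapamycin, and all others were at 9.76 or above. The main effect was -0.71 (SE 0.14, adjusted p = 0.210), and it lay within -0.82 to -0.60 when each array was left out in turn. Against vehicle it was -0.56 (SE 0.20) and for the combination against rapamycin -0.86 (SE 0.20), and the interaction of the drugs was -0.30 (SE 0.29, adjusted p = 1.0).

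Stard4, a soluble protein that moves cholesterol between membranes and an SREBP target, completed the set of genes without overlap. Its values were 8.59 and 8.37 with vehicle, 8.40 and 8.60 with rapamycin, 8.34 and 7.89 with PD-0325901 and 8.36 and 8.15 with the combination. The highest array with the drug (8.36) was only just below the lowest without it (8.37). The main effect was -0.31 (SE 0.13, adjusted p = 0.548).

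**Figure D2:**
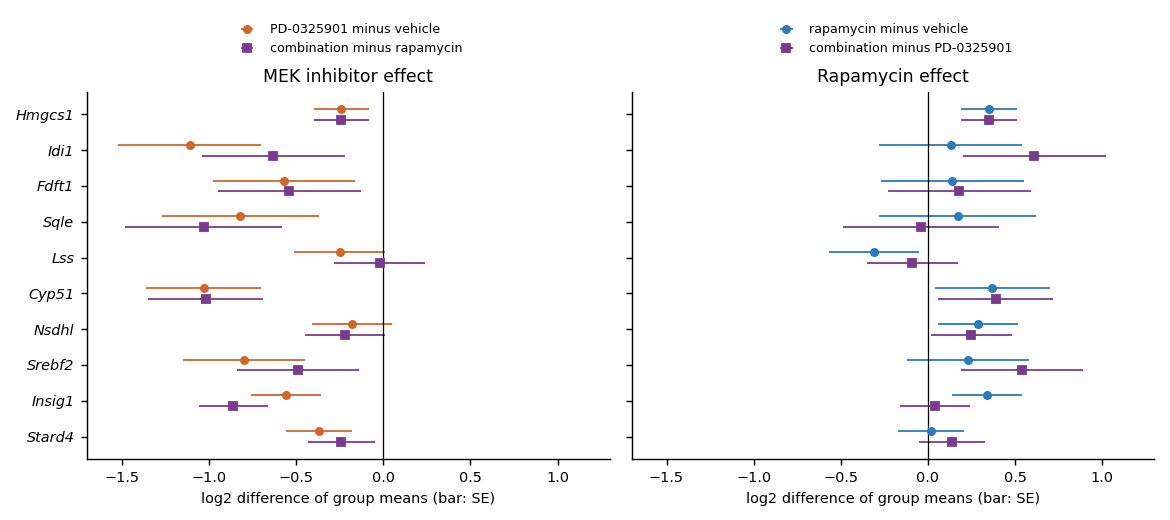
Log2 differences of group means for the 10 sterol genes, with limma's standard error as bars. The left panel shows the MEK inhibitor against vehicle (circles) and added to rapamycin (squares), where every point lies below 0, and the right panel shows rapamycin against vehicle (circles) and added to the MEK inhibitor (squares).

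The MEK inhibitor can be read without rapamycin, against vehicle, and on top of rapamycin, as the combination against rapamycin. In the first comparison all 10 were negative (53.8% of all genes), and the differences ran from -1.11 to -0.18 with a median of -0.57. The arrays did not overlap for 6 of the 10 genes (Cyp51, Insig1, Hmgcs1, Idi1, Srebf2 and Stard4), against 20.9% of all genes lower in this way. The median was -0.16 without PD-0325901 array 2 and -0.90 without array 1.

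In the second comparison all 10 were negative too (51.7% of all genes), and the differences ran from -1.03 to -0.02 with a median of -0.51. Again 6 genes did not overlap (Cyp51, Insig1, Sqle, Fdft1, Srebf2 and Stard4), against 15.1% of all genes. Cyp51, Insig1, Srebf2 and Stard4 were without overlap in both (4.55% of all genes), which follows from their separation over all arrays given above. The median was -0.22 without rapamycin array 2 and -0.28 without combination array 2. An adjusted p under 0.05 was reached by 0 of the 10 genes in either comparison, as by 0% of all genes. At an unadjusted p under 0.05 there were 3 against vehicle (2.38% of all genes lower) and 2 against rapamycin (2.71%). For the difference between these comparisons, the interaction, the 10 values had a median of 0.02 and a range of -0.30 to 0.48, with 0 genes under an unadjusted p of 0.05 (2.18% of all genes). Rapamycin effects that were opposite without and with PD-0325901, with no overlap in either, were found for 0 of the 10 genes and 3.16% of all genes.

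Rapamycin had the opposite sign for most of the genes, with a smaller median difference. For Hmgcs1, Nsdhl and Lss its main effect was larger in size than that of PD-0325901 (-0.24, -0.20 and -0.13). As a main effect 9 of the 10 genes were higher, with a median of 0.23 against -0.01 for all genes (53.8% of all genes were lower), and 0 passed the threshold (0% of all genes). Hmgcs1 was the 1 gene with an unadjusted p under 0.05, at 0.35 (SE 0.12, adjusted p = 0.833), where 3.15% of all genes were higher. Both rapamycin arrays of Hmgcs1 were above both vehicle arrays (0.35, SE 0.16) and both combination arrays above both PD-0325901 arrays (0.35, SE 0.16). Cyp51 had a main effect of 0.38 (SE 0.23), Srebf2 of 0.39 (SE 0.25), Idi1 of 0.37 (SE 0.29), Nsdhl of 0.27 (SE 0.16), Insig1 of 0.19 (SE 0.14) and Fdft1 of 0.16 (SE 0.29). The smallest were 0.08 (SE 0.13) for Stard4 and 0.06 (SE 0.32) for Sqle, and Lss was the exception at -0.20 (SE 0.18). For none of the 10 did the arrays with and without rapamycin separate (1.41% of all genes higher and 1.94% lower).

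Against vehicle, 9 of the 10 genes were higher with rapamycin (median 0.20, 54.1% of all genes lower). Cyp51 (0.37, SE 0.33) and Hmgcs1 did not overlap on the higher side, against 12.5% of all genes, and Lss (-0.31, SE 0.26) on the lower side, against 17.9%. Of the 10 genes 0 had an unadjusted p under 0.05 (2.77% of all genes higher). Rapamycin array 2 was the highest of the 8 arrays for 6 of the 10 genes, against 16.4% of all genes, and the median was 0.12 without it, 0.32 without array 1 and 0.10 without vehicle array 2. The part of the muscle and adipocyte markers of these arrays in their values was not tested.

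Added to PD-0325901, rapamycin gave higher means for 8 of the 10 genes, with a median of 0.21 (52.1% of all genes lower), and 0 had an unadjusted p under 0.05 (1.74% of all genes higher). Hmgcs1, Idi1 (0.61, SE 0.41), Nsdhl and Srebf2 (0.54, SE 0.35) did not overlap, against 16.3% of all genes, while Insig1 differed by 0.04 (SE 0.20). Without PD-0325901 array 2 the values were 0.29 for Idi1 and 0.09 for Srebf2, and without its array 1 they were 0.93 and 1.0. Hmgcs1 was at 0.20 without combination array 1. The median was -0.07 without PD-0325901 array 2, 0.53 without its array 1, and 0.06 or 0.46 when the first or second combination array was left out. The combination against vehicle had 8 of the 10 genes lower (53.7% of all genes) with a median of -0.37 and 7 without overlap, against 22.3% of all genes. Sqle had -0.86 (SE 0.45), Cyp51 -0.65 (SE 0.33) and Insig1 -0.52 (SE 0.20), while Hmgcs1 had 0.11 (SE 0.16). In none of these 3 comparisons did any of the 10 or any other gene pass the threshold in limma (0%), and at an unadjusted p under 0.05 Insig1 in the combination against vehicle was the 1 gene of the 10 (9.07% of all genes in either direction).

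The genes varied together over the arrays to different degrees. Cyp51 had a median Pearson correlation of 0.87 with the other 9 genes and Stard4 of 0.86, while Lss had 0.23. The median correlation of these genes with all genes lay between -0.03 and 0.05. The closest pair was Idi1 and Srebf2 at 0.96. These are descriptions over 8 arrays that share treatments in pairs. By the same measure the genes most like Cyp51 among all genes were Pmepa1 (0.98), Foxc1 (0.95), Stard4 (0.95), Olfr891 (0.95) and Thap6 (0.94), and those most like Insig1 were Utp25 (0.96), Olfr769 (0.95), 2310057N15Rik (0.94), Ppp1cb (0.94) and Efna1 (0.94).

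Since SREBP-2 acts at the promoters of these genes together with NF-Y, which binds CCAAT boxes, and Sp1, which binds GC boxes, the 250 bases before the transcription start were searched. Sequences were taken from RefSeq (GRCm38.p6), where 7 of the 10 genes had a promoter. The motifs searched on both strands were 2 forms of the sterol regulatory element, TCACNCCAC and the partly overlapping TCACCCCA. The E-box, a palindrome spelled CACGTG, was searched as well. So were the CCAAT box and the GC box, whose letters are GGGCGG. All 7 promoters held CCAAT, which 33.8% of the 32851 promoters in the table did, and all 7 held GGGCGG, which 32.7% did. The sterol element TCACNCCAC was found before Hmgcs1 alone (1.05% of all promoters), TCACCCCA before Hmgcs1 and Srebf2 (1.34%), and CACGTG before Insig1 alone (6.02%). A match is a description of letters, not a measured site. Other forms of the sterol element were not searched, so the lack of a match does not show that a promoter lacks one. The promoters of Hmgcs1 and Srebf2 are shown because they hold a searched form. Those of Cyp51 and Insig1 are shown because these genes had the clearest differences. Capitals mark the searched motifs on either strand.
Hmgcs1, chr13:119690101-119690350, plus strand: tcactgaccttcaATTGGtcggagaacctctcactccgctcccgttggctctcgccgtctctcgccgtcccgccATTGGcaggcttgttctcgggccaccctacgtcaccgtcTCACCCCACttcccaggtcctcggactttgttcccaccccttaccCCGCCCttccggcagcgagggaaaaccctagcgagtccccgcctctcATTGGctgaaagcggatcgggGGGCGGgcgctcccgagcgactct
Srebf2, chr15:82147019-82147268, plus strand: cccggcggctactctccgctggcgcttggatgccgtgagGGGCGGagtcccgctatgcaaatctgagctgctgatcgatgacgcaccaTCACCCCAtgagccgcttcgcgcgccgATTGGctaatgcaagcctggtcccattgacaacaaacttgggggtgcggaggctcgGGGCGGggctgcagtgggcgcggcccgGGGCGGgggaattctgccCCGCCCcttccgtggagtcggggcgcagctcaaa
Cyp51, chr5:4104698-4104947, minus strand: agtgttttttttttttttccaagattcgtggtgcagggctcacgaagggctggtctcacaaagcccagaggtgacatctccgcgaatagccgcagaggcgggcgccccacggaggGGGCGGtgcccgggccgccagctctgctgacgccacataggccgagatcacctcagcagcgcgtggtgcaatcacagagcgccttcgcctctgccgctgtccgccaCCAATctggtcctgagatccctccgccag
Insig1, chr5:28071162-28071411, plus strand: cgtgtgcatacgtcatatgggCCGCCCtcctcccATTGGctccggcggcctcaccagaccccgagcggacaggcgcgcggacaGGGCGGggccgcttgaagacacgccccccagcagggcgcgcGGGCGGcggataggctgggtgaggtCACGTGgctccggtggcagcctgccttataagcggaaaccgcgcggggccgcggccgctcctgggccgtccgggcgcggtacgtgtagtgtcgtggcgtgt
In Hmgcs1 the sterol element spans -137 to -129 from the start and lies between CCAAT boxes at -176 to -172 and -45 to -41. In Srebf2 it spans -162 to -155, with a CCAAT box at -135 to -131.

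Srebf2 also hosts in an intron the microRNA miR-33, which is known to repress Abca1, so its mature forms are shown with the seed (bases 2 to 8) in capitals.
mmu-miR-33-5p: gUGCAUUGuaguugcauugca
mmu-miR-33-3p: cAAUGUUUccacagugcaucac
The array holds a probe set for the Mir33 gene, which does not tell precursor from mature forms. It lay at 4.80 to 5.14 over the 8 arrays, below the array medians of 7.79 to 7.9. Without a background call, whether it read more than background could not be told. Its main effect of PD-0325901 was 0.15 (SE 0.08, adjusted p = 0.671).

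The other genes of the route were taken from 6 lists. Of 14 further sterol synthesis enzymes, 11 were measured, and 9 of these were lower with PD-0325901 with a median main effect of -0.22. None had an unadjusted p under 0.05. Msmo1, a sterol methyl oxidase, had -0.80 (SE 0.42) and lay at 8.78 to 9.46 with the drug and 9.27 to 11.18 without it, the 11.18 being rapamycin array 2. Sc5d, the desaturase near the end of the route, had -0.41 (SE 0.28), Dhcr7, the final reductase of one branch, -0.23 (SE 0.14), and Mvd, the mevalonate diphosphate decarboxylase, 0.20 (SE 0.12). In the isoprenoid branch, 5 of 8 genes were lower and 3 higher (median -0.10). Nus1, a subunit of the dolichol-making prenyltransferase, had -0.54 (SE 0.15), Pggt1b, a subunit of a protein prenyltransferase, 0.36 (SE 0.14), and the farnesyltransferase subunits Fnta and Fntb 0.38 (SE 0.19) and -0.44 (SE 0.26).

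The partners of Srebf2 and Insig1 showed no shared direction. Of 6 genes that control SREBP or the reductase, 4 were lower and 2 higher, with a median of -0.05. Mbtps1, the protease that makes the first cut of SREBP, had 0.46 (SE 0.16), Scap -0.12 (SE 0.09), Srebf1 -0.10 (SE 0.08) and the ubiquitin ligase Rnf139 -0.09 (SE 0.11). Srebf1, which mainly drives fatty acid synthesis, stayed within 9.36 to 9.69 over the 8 arrays. Among 8 sterol carriers 5 were higher, with a median of 0.08, and the 4 with the smallest p were Gramd1b (0.40, SE 0.30), Star (-0.20, SE 0.21), Scp2 (0.11, SE 0.15) and Gramd1c (0.08, SE 0.14).

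Genes of sterol export and breakdown lay on the opposite side from the 10 genes. Of 8 measured, 6 were higher with PD-0325901 with a median of 0.84, and 5 had an unadjusted p under 0.05, where 5.47% of all genes were higher. None passed the adjusted threshold. Cyp27a1, which makes an oxysterol that activates LXR, lay at 10.59 and 10.92 with PD-0325901, 10.59 and 10.60 with the combination, 10.08 and 9.14 with rapamycin and 9.10 and 9.13 with vehicle. All 4 arrays with the drug were above the others, a difference of 1.31 (SE 0.21, adjusted p = 0.157). Abca1, the cholesterol exporter, was at 11.66 and 12.25, 11.56 and 11.57, 11.39 and 10.79, and 10.48 and 11.00 in the same order of groups. It too did not overlap (0.85, SE 0.21, adjusted p = 0.309). Apoe, which takes up exported cholesterol, spanned 13.64 to 13.82 with the drug and 13.30 to 13.56 without it (0.30, SE 0.08), the third of the list without overlap, which 3.34% of all genes shared on the higher side. The exporter Abcg1 had 0.85 (SE 0.25) and Mylip, an LXR target that degrades lipoprotein receptors, 0.82 (SE 0.30), both with overlap. Nr1h3, which encodes LXR alpha, had -0.28 (SE 0.25), and Ch25h, an oxysterol-making hydroxylase, -0.12 (SE 0.40).

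Of 5 genes of uptake and lysosomal export, 4 were higher (median 0.41). Npc1, which moves cholesterol out of lysosomes, spanned 11.12 to 11.44 with PD-0325901 and 10.71 to 11.03 without it (0.41, SE 0.09, adjusted p = 0.270). Lipa, the lysosomal lipase, had 0.53 (SE 0.16), Npc2 0.29 (SE 0.13) and Vldlr 0.68 (SE 0.49). The median of the export list was between 0.63 and 0.97 when each array was left out.

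Markers of other cells differed alongside both sets of genes. Of 10 macrophage markers 9 were higher with PD-0325901, with a median of 0.43, and their score was -0.10 to 0.37 on the arrays with the drug and -0.31 to -0.07 on those without it. Abca1, Apoe, Cyp27a1 and Lipa are also expressed by macrophages. T and NK cell markers were higher for 10 of 10 (median 0.79), with a score of -0.03 to 0.98 on the arrays with the drug and -0.65 to 0 on the others. Endothelial markers were lower for 8 of 8 (median -0.50, score -0.42 to 0.11 against -0.09 to 0.60). Mitosis genes, which do not mark a cell type, were lower for 9 of 9 (median -0.30). Their score of -0.26 to 0.11 with the drug lay inside the range without it, -0.58 to 0.43. As a rapamycin main effect they were also lower for 9 of 9 (median -0.29), so this was not particular to PD-0325901. The part of these cells, or of dividing cells, in the values of either set was not tested.

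**Figure D3:**
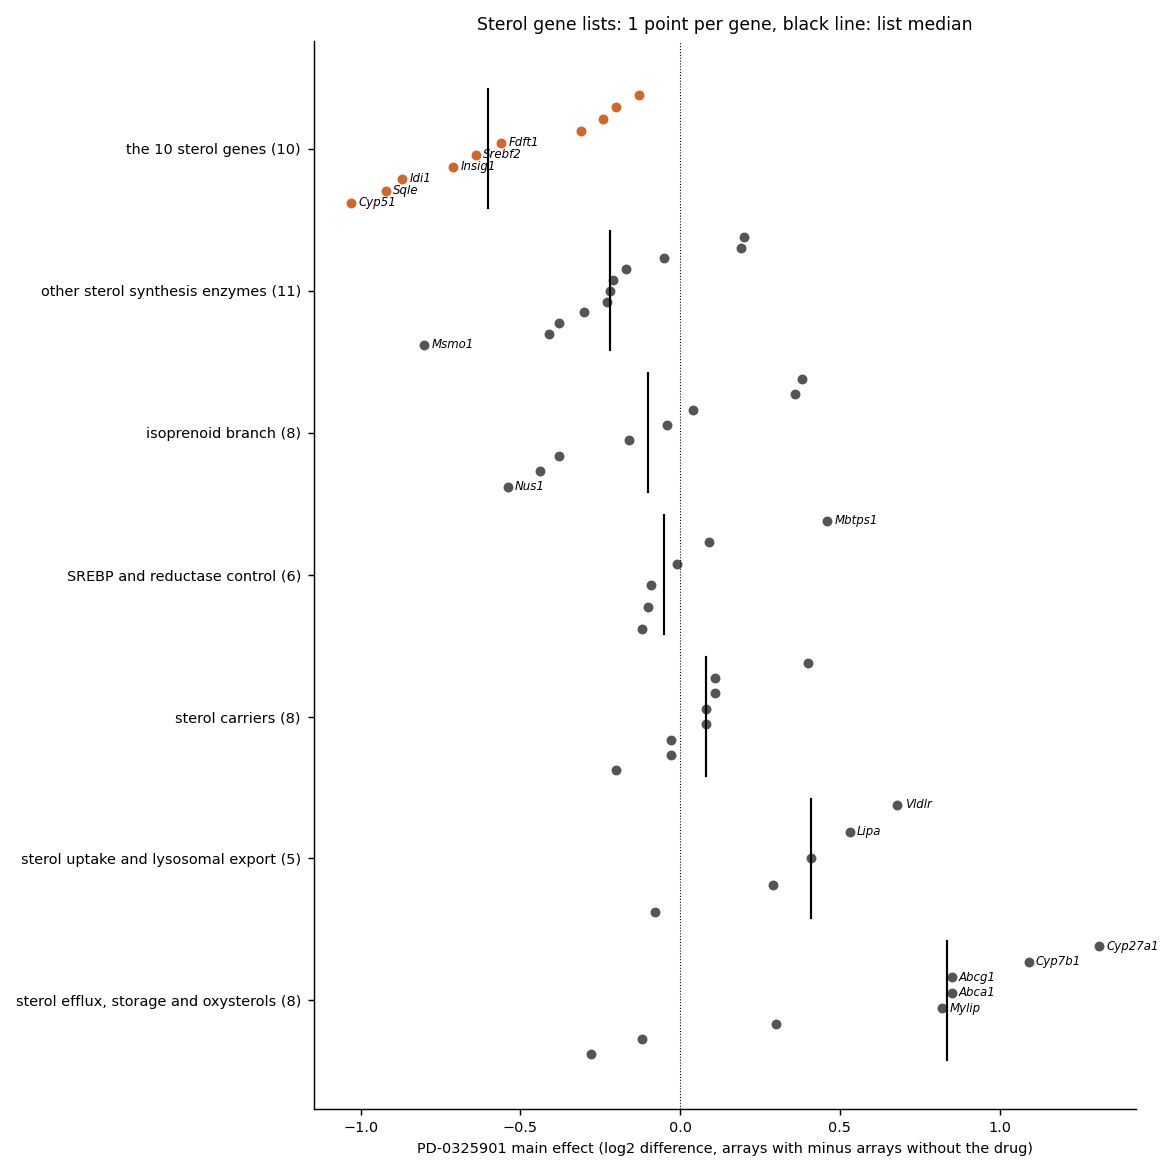
PD-0325901 main effect (log2 difference) for each measured gene of the 7 sterol lists, with list medians as black lines and genes beyond 0.45 in either direction named. The medians run from -0.60 for the 10 sterol genes to 0.84 for efflux, storage and oxysterol genes.

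**Figure D4:**
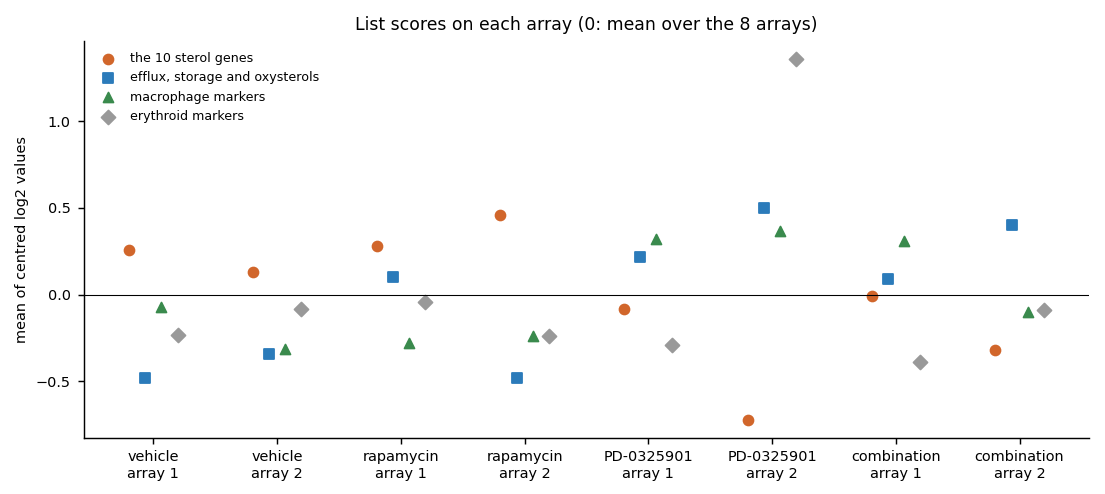
Score of 4 gene lists on each of the 8 arrays, as the mean of log2 values after each gene was centred on its mean. The 10 sterol genes score -0.72 to -0.01 on the arrays with PD-0325901 and 0.13 to 0.46 on the others, and the erythroid score is high on PD-0325901 array 2 alone.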

How the data were processed

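The authors deposited 1 log2 value per probe set and array for 8 arrays, and the unit was read from the values, which run from 3.36 to 14.36. How the authors corrected and normalized them is not given in the sources used here. Per the labels' protocols, a whole-transcript amplification kit (NuGEN) was used. Of 35512 probe sets, 21789 are annotated to 1 gene symbol, 1621 to several and 12101 to none, and 1 is empty. The probe set with the highest mean represented each gene (19938 genes), with no filter on low values. A model of 4 group means was fitted to all arrays with limma 3.58.1 and eBayes (two-sided tests, R 4.3.3), leaving 4 residual and 1.98 prior degrees of freedom and Benjamini-Hochberg adjustment over all genes at 0.05. The fit was run on simulated data with effects larger than those of the sterol genes, so its power at their sizes was not tested. The number of arrays limits the precision: 2 against 2 arrays cannot give an exact permutation p below 0.333. The members and lists were chosen with earlier results of these data known. From each other sterol list the rule named at most 4 genes, ranked by p in the PD-0325901 main effect, and for Cyp51 and Insig1 the 5 genes with the highest correlation. Nr1h3, Ch25h, Mylip, Mir33, Spred1, Scarb1, Sox10, S100b, Gap43 and Cdh19 were named after their values or files were seen. Listed genes with no single-gene probe set here were not analysed. Alternatives were quantile normalization, median centring, a level filter, a robust prior with variance trend, probe set means, a replicate block, a threshold of 0.1, only the groups compared, and leaving out each array. Leaving out arrays for the counts at an unadjusted p and for genes of the other sterol lists was added after seeing the data.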

Additional observations from a re-analysis of the deposited data

Results flagged for a closer look

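For 2 genes of the sterol lists the arrays did not overlap in either rapamycin comparison and the directions were opposite, which held for 3.16% of all genes. Mbtps1 differed by -0.32 for rapamycin against vehicle and by 0.32 when rapamycin was added to PD-0325901, and Scarb1, a lipoprotein receptor, by 0.32 and -0.24. The limma interaction was 0.64 (SE 0.32, adjusted p = 1.0) for Mbtps1 and -0.57 (SE 0.23, adjusted p = 1.0) for Scarb1, so neither passed the test of the difference. None of the 10 sterol genes met this criterion.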

How the results depend on the processing

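Over 127 alternative fits the count of sterol genes past the threshold stayed at 0, while the count over all genes reached 22, in the fit of arrays with against arrays without PD-0325901. Quantile normalization and median centring changed the sign of none of the 50 reported differences of the 10 genes. Neither did the probe set rule, which bears on Idi1 and Fdft1 alone. The filter, prior, threshold, replicate block and restriction to the groups compared cannot change a difference in this balanced design, only its p-value or call. Of the 50 differences, 42 kept their sign under every alternative. Those that did not lay, with each array left out in turn, at -0.29 to 0.02 for Lss (PD-0325901 main effect), -0.28 to 0.40 for Sqle, -0.11 to 0.43 for Fdft1 and -0.03 to 0.19 for Stard4 (rapamycin main effect), -0.57 to 0.07 for Lss and -0.42 to 0.05 for Nsdhl (PD-0325901 versus vehicle), -0.04 to 0.26 for Hmgcs1 (combination versus vehicle), -0.30 to 0.25 for Lss (combination versus rapamycin). The cause was not tested. Leaving out each array moved the median of the 10 genes by more than the spread between arrays (SD 0.23) in some comparisons: from -0.80 to -0.35 (PD-0325901 main effect), -0.90 to -0.16 (PD-0325901 against vehicle), -0.66 to -0.22 (combination against rapamycin), -0.07 to 0.53 (combination against PD-0325901) and -0.17 to 0.46 (interaction). Deviations of same-numbered arrays correlated weakly over all genes (-0.28 to 0.18 over 6 pairs of groups). Such values cannot show whether the arrays were paired. With the array number as a replicate block 0 genes passed in the PD-0325901 main effect. The block is balanced over the groups, so the median of -0.60 could not change and is no check of it. A group left with 1 array is assumed to vary like the others.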
